A study of Homo sapiens with 12 samples.

Results

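The NRF2 target genes described here were NQO1, GCLM, GCLC, HMOX1, SRXN1, TXNRD1, SLC7A11, OSGIN1, AKR1B10 and AKR1C1, 10 of the 25369 genes in the deposited tables. They were chosen by symbol as known targets of the transcription factor NRF2, and each symbol matched a row of the count table and of the RPKM table. All 10 passed the filter on low counts in each of the 3 cell lines, although AKR1B10 and AKR1C1 did so in RKO with few reads. NRF2 (encoded by NFE2L2) drives the genes that make glutathione, reduce thioredoxin, detoxify quinones and carbonyls, and break down haem. In unstressed cells the adaptor protein KEAP1 binds NRF2 and hands it to a CUL3 and RBX1 ubiquitin ligase for destruction. Oxidants and electrophiles disable KEAP1, after which NRF2 pairs with a small MAF protein at antioxidant response elements in the DNA, sites that the repressor BACH1 can also occupy. Loss-of-function mutations of KEAP1 are frequent in lung cancer, and A549 and H460 are known to carry them whereas RKO is not. That genotype is background knowledge, was not given in the sample labels and was not read from these data.

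Poly(A)+ RNA was sequenced from RKO (colon carcinoma), A549 (lung adenocarcinoma) and H460 (lung large cell carcinoma) cells. Each line was kept in normoxia or placed in hypoxia at 1% O2 for 24 h, with 2 independent biological replicates per condition, 6 groups and 12 libraries. All are established cancer cell lines, for which the labels name no engineered allele, and were plated a day ahead in serum-supplemented medium, which was DMEM for RKO and A549 and RPMI for H460. DMEM was thus shared by RKO and A549, and lung origin by A549 and H460. Genotype, tissue, medium and any other property in which a pair of lines differed cannot be told apart in a comparison of that pair. In bulk RNA, a change in the share of cells and a change per cell also cannot be told apart.

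Counted reads per library ranged from 27350424 to 41757584. Levels are given as counts per 1000000 reads (CPM) scaled by the trimmed mean of M values (TMM), and levels of different genes are compared as deposited RPKM, which also divides by gene length. Without TMM, by library size alone, the median gene had an H460 hypoxia effect shifted by -0.35 on the log2 scale (RKO 0.08, A549 -0.09). The direction of a small H460 change therefore holds relative to TMM. CA9, a hypoxia-induced carbonic anhydrase, rose in all 3 lines, and its log2 fold change was 4.45 ± 0.31 (SE) for RKO, 5.65 ± 0.37 for A549 and 6.81 ± 0.28 for H460. The other hypoxia control genes were NDRG1 and VEGFA. Mean NDRG1 went from 68.4 to 1385 CPM in RKO, from 45.5 to 1218 in A549 and from 18.5 to 1263 in H460. Mean VEGFA went from 58.6 to 139, from 109 to 341 and from 158 to 448 CPM in the same order. In hypoxic A549 their SD was 768 and 191 CPM (n = 2). Of 4 colon markers only CDX2 reached 100 counts in an RKO library, and CDX1, VIL1 and LGALS4 stayed under 10 counts. Of 4 lung markers only NAPSA reached 100 counts in A549, none did in H460, and SFTPB and SFTPC stayed under 10 counts in both lines. PTPRC, COL1A2 and PECAM1, which mark blood, stromal and endothelial cells, stayed under 10 counts in every library. COL1A1 carried the summed level of these non-epithelial markers, which was 47.0 and 83.3 CPM in normoxic and 130 and 430 CPM in hypoxic A549 libraries, and its part in the results was not tested. The summed level of the epithelial markers also moved with hypoxia, from 186 and 196 CPM in normoxic to 104 and 108 CPM in hypoxic RKO and from 1790 and 1925 to 2340 and 2526 CPM in H460. In A549 it was between 2552 and 3108 CPM in normoxia and between 2474 and 2483 CPM in hypoxia. The markers did not move together. In RKO the fall was that of KRT18, whose mean went from 177 to 89.2 CPM. Mean KRT8 (8.17 to 10.6 CPM) and EPCAM (4.74 to 5.43 CPM) did not fall there. In H460 the rise was that of KRT19, from a mean of 604 to 1428 CPM. KRT18 fell there from 508 to 456 CPM, and KRT8 fell too. The part of these markers in the hypoxia effects below was not tested either.

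Promoter sequences from RefSeq (GRCh38.p14 table, positions below found by exact match on GRCh37) were present for 7 of the 10 genes, all but HMOX1, SLC7A11 and AKR1B10. The core of the antioxidant response element, TGACNNNGC, was searched on both strands over the 250 bases before each start site. GCLM had a match, and TXNRD1 had a match at each of its annotated start sites. These stretches are shown because they are the copies of the element core found close to a start site, with the matched bases in capitals.
GCLM, chr1:94375002-94375030, minus strand: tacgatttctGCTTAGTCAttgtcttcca
TXNRD1, first start site, chr12:104609448-104609476, plus strand: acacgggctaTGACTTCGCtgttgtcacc
TXNRD1, other start site, chr12:104680698-104680726, plus strand: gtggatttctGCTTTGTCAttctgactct
The GCLM match began 34 bases before the RefSeq start and read TGACTAAGC on the opposite strand, and the deposited gene extends into this stretch. The TXNRD1 matches began 99 and 102 bases before their starts and read TGACTTCGC on the same strand and TGACAAAGC on the opposite strand. Among 35116 RefSeq promoters, 10.9% held a match to TGACNNNGC in the same window, and 0.456% held the more specific TGACTCAGC. The windows of NQO1, GCLC, SRXN1, OSGIN1 and AKR1C1 held no match, which says only that these letters were absent from 250 bases.

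In normoxia the 10 genes stood higher in both lung lines than in RKO, with HMOX1 as the exception in H460. Genes were called at a Benjamini-Hochberg adjusted p under 0.1 (edgeR quasi-likelihood F test, joint fit of the 12 libraries) and a fold change over 1.5. Against RKO, 10 of 10 genes were called higher in A549, where 34.1% of 15595 tested genes were called higher, and none was called lower, where the background was 26.0%. Against RKO, 8 of 10 were called higher in H460, where the background was 34.7%, and none was called lower (background 27.2%). DESeq2 and limma also called 0 genes lower in both contrasts, and 0 had an unadjusted p under 0.05 in that direction. The same 8 genes were called in both lung lines, beside 23.5% of all tested genes. The median log2 difference over the 10 genes was 2.54 for A549 and 3.01 for H460, against 0.08 and 0.09 over all tested genes.

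**Figure D1:**
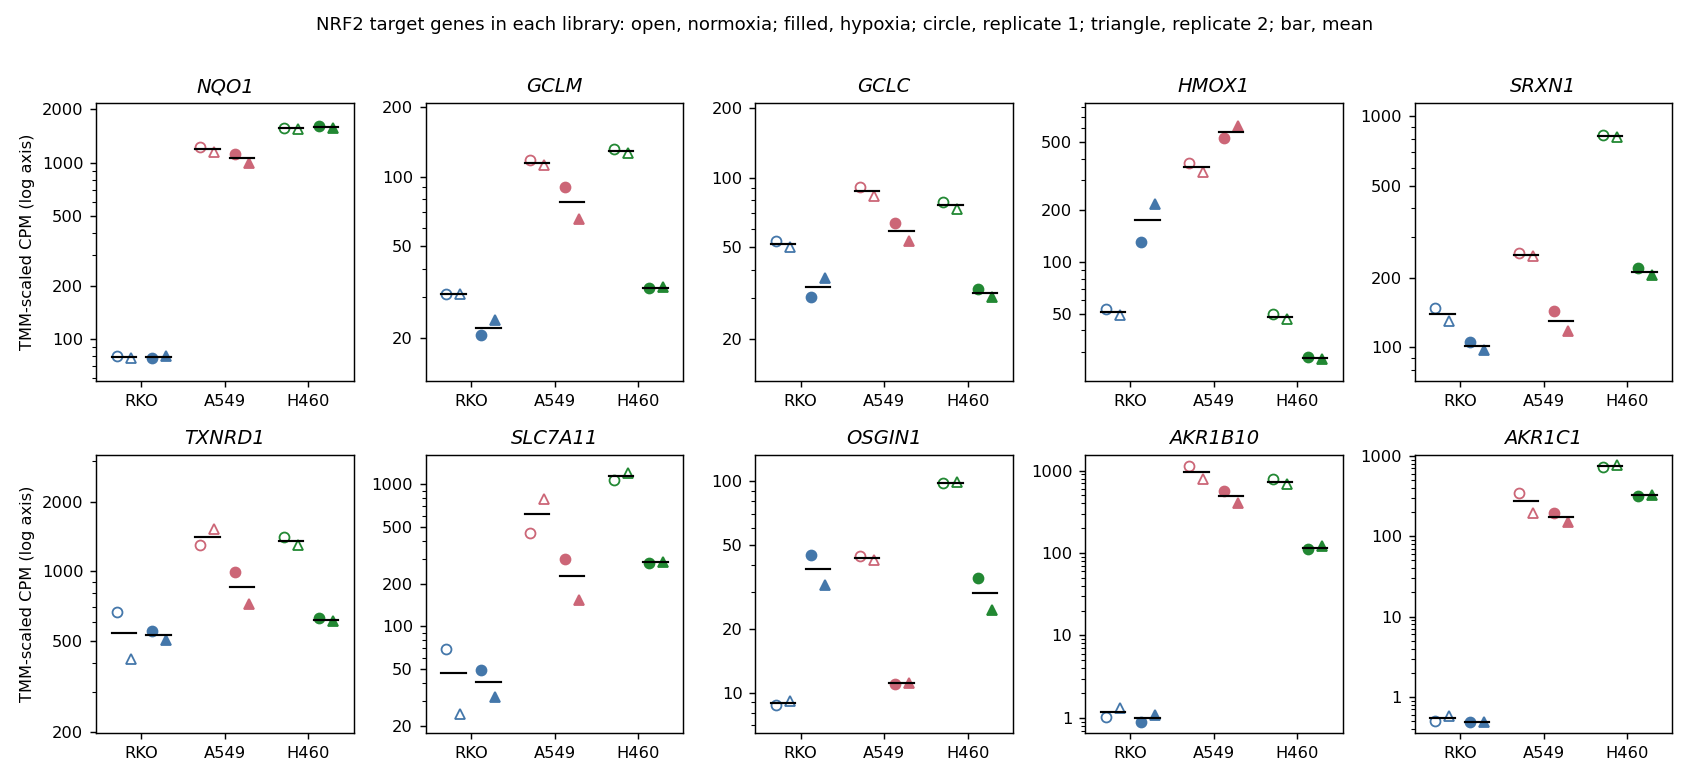
TMM-scaled CPM (log axis, its range set per panel) of each NRF2 target gene in the 12 libraries, grouped by cell line, with open symbols for normoxia, filled symbols for hypoxia, circles for replicate 1, triangles for replicate 2 and a bar at the mean. AKR1B10 and AKR1C1 lie at or under 1.33 CPM in every RKO library and above 100 CPM in every lung line library, the NQO1 panel separates RKO from the lung lines with both conditions close together in each line, and OSGIN1 is higher in hypoxia than in normoxia only in RKO.

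The widest gaps belonged to the aldo-keto reductases, which reduce reactive carbonyls. AKR1B10 (chromosome 7, 134212343 to 134226166, GRCh37, plus strand) was at 1.04 and 1.33 CPM in the normoxic RKO libraries, at 1154 and 788 CPM in A549 and at 791 and 686 CPM in H460. The RKO values rested on 39 and 53 reads, so that line held a low but counted level and no lung line library came near it. The log2 difference was 9.67 ± 0.30 for A549 (adjusted p = 1.92e-12) and 9.28 ± 0.29 for H460 (adjusted p = 2.41e-12). AKR1C1 (chromosome 10, 5005453 to 5020158, plus strand) was at 0.505 and 0.577 CPM in RKO, at 349 and 196 CPM in A549 and at 734 and 768 CPM in H460. The RKO values came from 19 and 23 reads. The log2 difference was 8.96 ± 0.32 for A549 and 10.43 ± 0.33 for H460. AKR1C1 shares sequence with its neighbour AKR1C2. Of 6394 windows of 150 bases, the read length, in the main AKR1C1 transcript, 506 (7.91%) were identical to a window of AKR1C2. That transcript has 6543 bases and the deposited gene 1379, so the shared part of the counted gene can differ from this. Reads from these stretches could not be assigned, so the AKR1C1 level is uncertain to that extent. The other 9 genes shared no such window with a gene at another locus.

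NQO1 (chromosome 16, 69743303 to 69760571, minus strand), which reduces quinones by 2 electrons at once and is a standard readout of NRF2 activity, was at 79.6 and 78.0 CPM in normoxic RKO. Its level was 1225 and 1150 CPM in A549 and 1579 and 1557 CPM in H460. Mean levels were 15.1 and 19.9 times that of RKO, with log2 differences of 3.91 ± 0.15 and 4.31 ± 0.15, and the replicates of a group lay within a few percent of each other. In RPKM, NQO1 was the most abundant of the 10 genes in normoxic H460 (621 ± 2.9, SD, n = 2) and ranked 96 among all genes there, against rank 2528 in RKO (31.9 ± 0.28).

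SLC7A11 (chromosome 4, 139085247 to 139163503, minus strand) imports cystine, the precursor for glutathione. Its normoxic level was 69.1 and 24.0 CPM in RKO, 451 and 793 CPM in A549, and 1078 and 1196 CPM in H460. The groups did not overlap, but the higher replicate was 2.88 times the lower in RKO and 1.76 times in A549. The log2 difference from RKO was 3.74 ± 0.45 for A549 (adjusted p = 3.91e-06) and 4.61 ± 0.47 for H460 (adjusted p = 6.55e-07). Both stayed called without any single library, at 4.71 and 5.58 without RKO normoxia replicate 1 and at 3.18 and 4.05 without RKO normoxia replicate 2.

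The 2 subunits of glutamate-cysteine ligase, which makes the first bond of glutathione, differed less between lines. GCLM (modifier subunit, chromosome 1, 94352589 to 94375012, minus strand) was at 31.1 and 31.0 CPM in RKO, at 118 and 112 CPM in A549 and at 132 and 127 CPM in H460. GCLC (catalytic subunit, chromosome 6, 53362139 to 53409927, minus strand) was at 53.4 and 50.0 CPM in RKO, at 91.1 and 83.5 CPM in A549 and at 78.8 and 72.8 CPM in H460. Both lung lines lay above RKO in every library for both subunits. For GCLM the log2 difference was 1.89 ± 0.16 and 2.06 ± 0.16, and for GCLC it was 0.76 ± 0.15 in A549 and 0.55 ± 0.15 in H460. The last of these had an adjusted p of 0.00365 but missed the fold change minimum, and was called without RKO normoxia replicate 1 (0.61) or H460 normoxia replicate 2 (0.62).

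SRXN1 and TXNRD1 regenerate peroxiredoxins and thioredoxin, the other thiol system. SRXN1 (sulfiredoxin, chromosome 20, 627267 to 634014, minus strand) was at 148 and 131 CPM in RKO, at 256 and 247 CPM in A549 and at 833 and 815 CPM in H460. It thus stood in 3 separate steps, with log2 differences from RKO of 0.86 ± 0.14 and 2.57 ± 0.15. TXNRD1 (thioredoxin reductase, chromosome 12, 104609556 to 104744085, plus strand) was at 664 and 416 CPM in RKO, at 1291 and 1524 CPM in A549 and at 1409 and 1291 CPM in H460. A549 and H460 overlapped, and both lay above RKO by 1.38 ± 0.21 and 1.32 ± 0.21. TXNRD1 was the most abundant of the 10 genes in RKO, at 124 ± 38 RPKM (SD, n = 2).

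HMOX1 and OSGIN1 completed the list. HMOX1 (haem oxygenase, chromosome 22, 35777059 to 35790207, plus strand), which opens the haem ring and is also repressed by BACH1, was at 52.9 and 48.9 CPM in RKO, at 377 and 335 CPM in A549 and at 49.6 and 46.4 CPM in H460. A549 thus stood apart and RKO and H460 overlapped. The difference was 2.81 ± 0.20 for A549 over RKO and -0.09 ± 0.19 for H460 over RKO (95% confidence interval -0.50 to 0.33). OSGIN1 (chromosome 16, 83986826 to 83999937, plus strand), an oxidative stress-induced growth inhibitor, was at 8.71 and 9.09 CPM in RKO, at 44.1 and 42.3 CPM in A549 and at 97.2 and 98.3 CPM in H460. The differences from RKO were 2.28 ± 0.19 and 3.46 ± 0.20.

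**Figure D2:**
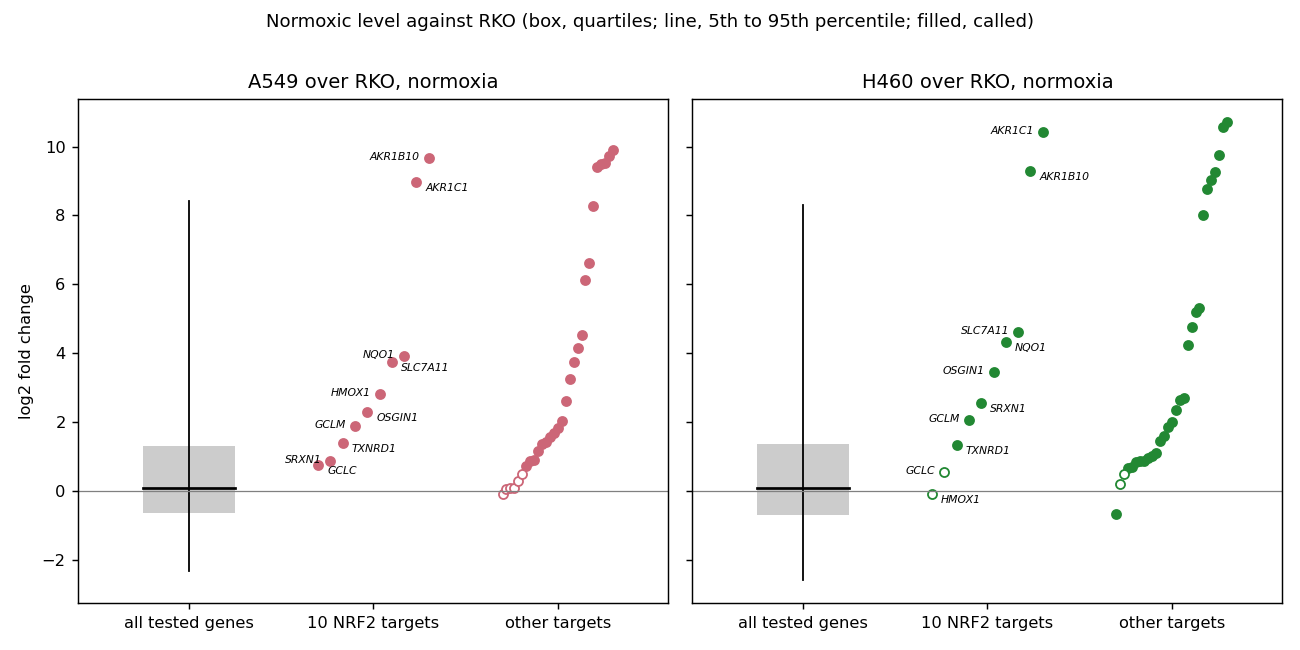
Log2 fold change over RKO in normoxia for A549 (left) and H460 (right), with all tested genes as a box (quartiles, median line, and a line from the 5th to the 95th percentile) beside the 10 NRF2 targets and the wider list of NRF2 targets (filled points, called; open points, not called; genes at or under 3 counts in RKO are left out). All 10 points lie above 0 for A549, and HMOX1 is the point at -0.09 for H460.

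The lung lines also differed from each other. In normoxic A549 against normoxic H460, 1 gene was called higher (background 26.9%) and 4 were called lower (background 25.2%). The gene called higher was HMOX1 (2.89 ± 0.21, adjusted p = 2.39e-08). The genes called lower were SRXN1 (-1.71 ± 0.14), AKR1C1 (-1.46 ± 0.21), OSGIN1 (-1.18 ± 0.18) and SLC7A11 (-0.87 ± 0.40). NQO1 differed by -0.40 ± 0.13 (adjusted p = 0.0174), under the fold change minimum. For the remaining genes the 95% confidence intervals of the difference ran from -0.50 to 0.15 for GCLM, from -0.11 to 0.51 for GCLC, from -0.38 to 0.50 for TXNRD1 and from -0.03 to 0.82 for AKR1B10. The SLC7A11 call was lost without A549 normoxia replicate 1 (-0.52), H460 normoxia replicate 1 (-0.95) or H460 normoxia replicate 2 (-0.80), and AKR1B10 was called without A549 normoxia replicate 2 (0.65).

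Under hypoxia the same genes moved differently in each line, and the hypoxia effects were fitted on the 4 libraries of a line. In RKO, HMOX1 and OSGIN1 rose and GCLC fell. Thus 2 genes were called higher (background 18.8% of 12817 tested genes) and 1 was called lower (background 15.1%). The median change over the 10 genes was -0.24 on the log2 scale, against 0.01 over all tested genes. HMOX1 was at 131 and 219 CPM in hypoxia, above both normoxic libraries (52.9 and 48.9), a rise of 1.72 ± 0.22 (adjusted p = 0.00037). OSGIN1 was at 44.8 and 32.1 CPM, again above both normoxic libraries (8.71 and 9.09), a rise of 2.05 ± 0.21 (adjusted p = 0.000119). The hypoxic replicates of HMOX1 differed by 1.66 times, less than the gap to normoxia.

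GCLC was the gene called lower in hypoxic RKO. It was at 30.5 and 36.7 CPM in hypoxia against 53.4 and 50.0 in normoxia and fell by 0.68 (SE 0.17, adjusted p = 0.00945). GCLM was at 20.6 and 23.9 CPM against 31.1 and 31.0, a difference of -0.54 ± 0.17 with an adjusted p of 0.0308 that missed the fold change minimum. SRXN1 was at 105 and 97.6 CPM against 148 and 131, a difference of -0.52 ± 0.15 with an adjusted p of 0.0201 that missed it too. Hypoxic and normoxic libraries did not overlap for any of these 3 genes. The share of all tested genes without such overlap was not computed for any line. At an adjusted p under 0.1 alone, 22.9% of all tested genes were lower in hypoxic RKO. NQO1 was at 77.4 and 80.1 CPM against 79.6 and 78.0, a difference of -0.06 ± 0.15. TXNRD1 was at 549.1 and 505 CPM against 664 and 416, and SLC7A11 at 49.2 and 31.9 CPM against 69.1 and 24.0, so that for both genes the hypoxic values lay between the normoxic ones. AKR1B10 (0.887 and 1.09 CPM) and AKR1C1 (0.493 and 0.480 CPM) stayed between 18 and 41 reads, and their intervals, from -1.15 to 0.51 and from -1.17 to 0.74, left a change of more than 1.5-fold undetectable at this depth. The GCLC call was lost without RKO hypoxia replicate 1 (-0.50), while GCLM was called without RKO hypoxia replicate 2 (-0.65) and SRXN1 without RKO normoxia replicate 2 (-0.61). SLC7A11 was at -0.84 without RKO normoxia replicate 2 and at 0.70 without RKO normoxia replicate 1, so its direction depended on which library was left out.

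In A549 the 10 genes lay mostly lower in hypoxia, in a line whose replicates varied most. The biological coefficient of variation was 18.9% there, against 15.0% in RKO and 7.91% in H460. OSGIN1, SLC7A11, AKR1B10 and SRXN1 fell, 4 genes where 0.456% of 14251 tested genes were called lower. No gene was called higher by edgeR (background 2.22%), 1 gene (HMOX1) had an unadjusted p under 0.05 in that direction, DESeq2 called 1 and limma 0. Estimates were negative for 9 of 10 genes, with a median of -0.70 against -0.01 over all tested genes. OSGIN1 was at 11.0 and 11.1 CPM in hypoxia against 44.1 and 42.3 in normoxia and fell by 1.98 (SE 0.20, adjusted p = 0.00441). SLC7A11 was at 298 and 153 CPM against 451 and 793 and fell by 1.48 (SE 0.34, adjusted p = 0.0854). AKR1B10 was at 568 and 404 CPM against 1154 and 788 and fell by 1.01 (SE 0.25, adjusted p = 0.0953). None of these conditions overlapped. SRXN1 was at 143 and 117 CPM against 256 and 247, again without overlap, and fell by 0.96 (SE 0.18, adjusted p = 0.0442).

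The other A549 genes did not pass in this fit. TXNRD1 was at 992 and 721 CPM in hypoxia against 1291 and 1524 (-0.73 ± 0.21, adjusted p = 0.15), GCLC at 63.7 and 53.3 CPM against 91.1 and 83.5 (-0.59 ± 0.18), and GCLM at 90.1 and 65.6 CPM against 118 and 112 (-0.57 ± 0.20). Hypoxia was lower than normoxia in both replicates of each. HMOX1 lay above normoxia, at 526 and 623 CPM against 377 and 335, with a difference of 0.68 ± 0.18 and an adjusted p of 0.124. AKR1C1 was at 194 and 151 CPM against 349 and 196, its hypoxia and normoxia libraries almost touching (-0.68 ± 0.27). NQO1 was at 1116 and 992 CPM against 1225 and 1150 (-0.19 ± 0.18, 95% confidence interval -0.58 to 0.21). Without A549 hypoxia replicate 1, TXNRD1 was at -0.99, AKR1C1 at -0.88, GCLM at -0.84, GCLC at -0.74 and HMOX1 at 0.78. Without A549 hypoxia replicate 2, SRXN1 was at -0.82 and AKR1B10 at -0.78. SLC7A11 was at -1.02 without A549 normoxia replicate 2, and AKR1B10 at -0.71 without A549 normoxia replicate 1. Such fits leave 1 library in a group, and the A549 calls depended on which library was left out.

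H460 had the widest response. Here 9 of 10 genes fell, all but NQO1, where 27.3% of 14080 tested genes were called lower. By library size alone the same 9 genes were called lower, beside 40.9% of all tested genes, and 14.7% were called higher. By TMM none of the 10 rose, against a background of 24.6%, with 0 genes at an unadjusted p under 0.05 in that direction and 0 by DESeq2 and limma. The median change was -1.51, against -0.04 over all tested genes. AKR1B10 was at 113 and 120 CPM in hypoxia against 791 and 686 in normoxia, 15.8% of its normoxic mean, and fell by 2.68 (SE 0.11, adjusted p = 2.68e-09). SLC7A11 was at 280 and 285 CPM against 1078 and 1196 and fell by 2.03 (SE 0.10). GCLM was at 33.0 and 33.2 CPM against 132 and 127 and fell by 1.98 (SE 0.09). These genes thus kept from 15.8% to 25.6% of their normoxic level, and SRXN1 lay close by, at 221 and 205 CPM against 833 and 815 (a fall of 1.97, SE 0.09). OSGIN1 was at 34.8 and 24.6 CPM against 97.2 and 98.3 and fell by 1.74 (SE 0.13).

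The remaining H460 genes fell less. GCLC was at 32.9 and 30.3 CPM against 78.8 and 72.8 and fell by 1.28 (SE 0.09). AKR1C1 was at 321 and 327 CPM against 734 and 768 and fell by 1.23 (SE 0.09), and TXNRD1 was at 624 and 605 CPM against 1409 and 1291 and fell by 1.15 (SE 0.10). HMOX1 was at 28.0 and 27.2 CPM against 49.6 and 46.4 and fell by 0.81 (SE 0.09, adjusted p = 9.84e-06). For each of these 9 genes both hypoxic libraries lay under both normoxic ones. Lower levels were common in this line, at 39.7% of all tested genes by an adjusted p under 0.1 alone. NQO1 was at 1609 and 1578 CPM against 1579 and 1557, a difference of 0.01 ± 0.10 (95% confidence interval -0.20 to 0.22). With library size alone this value was -0.35, the shift of all genes in that line.

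**Figure D3:**
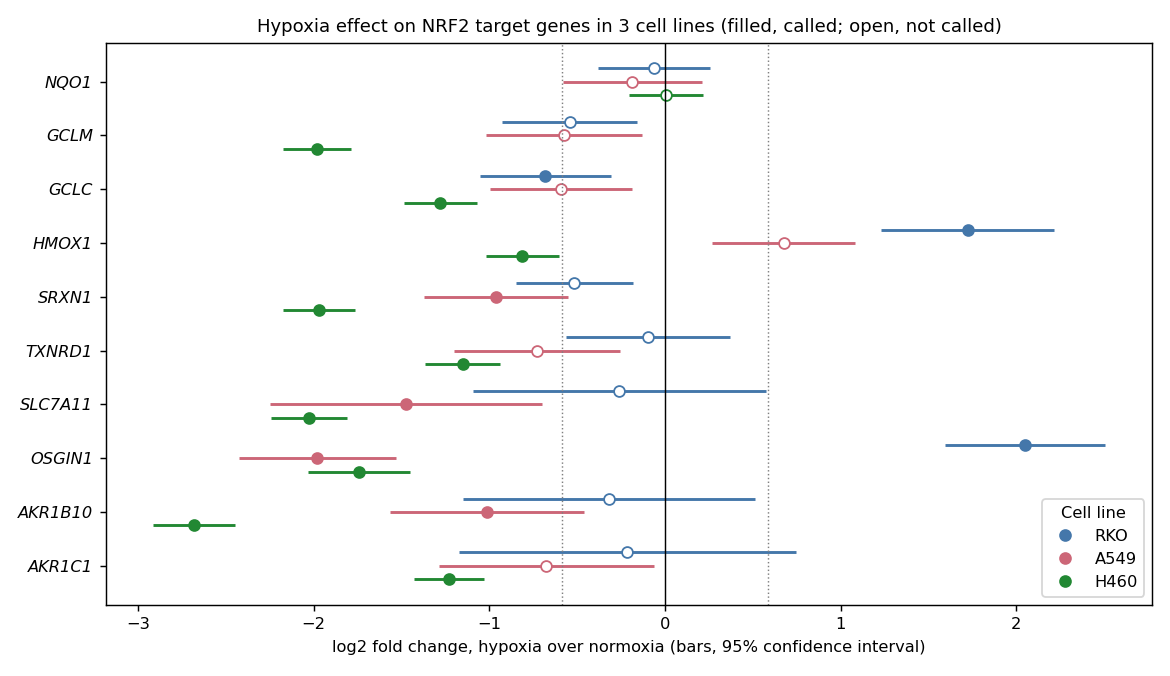
Log2 fold change of hypoxia over normoxia for each NRF2 target gene in RKO, A549 and H460, each fitted on the 4 libraries of its line, with bars for the 95% confidence interval, filled points for called genes and dotted lines at a fold change of 1.5. OSGIN1 lies at 2.05 in RKO and at -1.98 and -1.74 in A549 and H460, and NQO1 lies near 0 in all lines.

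Across the lines, 4 genes were called lower in both A549 and H460 (SRXN1, SLC7A11, OSGIN1 and AKR1B10), GCLC was called lower in both RKO and H460, and no gene was called lower in all 3. How many of all tested genes shared such calls was not computed, so these overlaps have no background. Taken singly, H460 had 27.3% of its tested genes called lower, against 15.1% for RKO and 0.456% for A549. Whether effects differed between lines was tested as a difference of hypoxia effects in the joint fit, called on an adjusted p under 0.1 alone. The effect was higher in RKO than in A549 for 2 genes (background 9.03%), namely OSGIN1 by 4.08 ± 0.27 on the log2 scale (adjusted p = 1.71e-06) and HMOX1 by 1.09 ± 0.27 (adjusted p = 0.0265). It was higher in RKO than in H460 for 8 genes (background 21.1%), led by OSGIN1 (3.83 ± 0.27), HMOX1 (2.58 ± 0.28) and AKR1B10 (2.40 ± 0.37). The genes that did not pass there were NQO1 (-0.02 ± 0.19) and AKR1C1 (1.06 ± 0.47, adjusted p = 0.106). It was higher in A549 than in H460 for 5 genes (background 18.8%), which were AKR1B10 (1.67 ± 0.28), HMOX1 (1.49 ± 0.27), GCLM (1.41 ± 0.22), SRXN1 (1.00 ± 0.20) and GCLC (0.68 ± 0.21). No difference was called in the opposite direction by edgeR, DESeq2 or limma in these 3 contrasts, where the background was 5.53%, 16.4% and 17.2%, and 0 genes had an unadjusted p under 0.05 that way. By library size alone the background split was 12.2% higher and 3.08% lower for RKO against A549, 35.1% and 7.58% for RKO against H460 and 28.2% and 10.7% for A549 against H460, with 4, 9 and 7 of the 10 genes called higher and 0 lower. The contrasts share libraries, so their counts are not independent.

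Some of these differences rested on a library. Between RKO and A549, TXNRD1 was at 1.06 and SLC7A11 at 2.23 without RKO normoxia replicate 1, against 0.68 and 1.27 with all libraries. SLC7A11 was at 1.62 without A549 normoxia replicate 1. Between RKO and H460, GCLC was lost without RKO hypoxia replicate 2 (0.52), H460 normoxia replicate 1 (0.59) or H460 hypoxia replicate 2 (0.57), and SLC7A11 without RKO hypoxia replicate 1 (1.47), while without RKO normoxia replicate 1 SLC7A11 was at 2.78. Between A549 and H460, GCLC was lost without H460 hypoxia replicate 2 (0.60), and AKR1C1 was called without A549 normoxia replicate 1 (1.03) or A549 hypoxia replicate 2 (0.72).

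The genes of NRF2 itself, its partners and its inhibitors were read from the same fits as a list of 10. Normoxic NFE2L2 was at 71.4 and 58.5 CPM in RKO, at 68.5 and 94.3 CPM in A549 and at 140 and 148 CPM in H460. Only H460 stood clear of RKO, by 1.15 ± 0.16 (adjusted p = 1.38e-05), while A549 differed by 0.33 ± 0.15 and was not called. KEAP1 transcripts were at 87.7 and 93.0 CPM in RKO, at 80.9 and 65.5 CPM in A549 and at 69.7 and 65.4 CPM in H460. The KEAP1 differences from RKO, -0.30 ± 0.14 and -0.42 ± 0.14, were under the fold change minimum. Against RKO, A549 was called higher for 4 of the 10 regulators (background 34.1%) and lower for 3 (background 26.0%), shares near those of all tested genes. H460 was called higher for 5 (background 34.7%) and lower for 1 (background 27.2%). SQSTM1, the autophagy receptor p62 that binds KEAP1 and is itself an NRF2 target, was higher in both (1.90 ± 0.17 and 1.19 ± 0.17). So were the MAF partners MAFG (1.08 ± 0.15 and 1.54 ± 0.15) and MAFK (2.17 ± 0.27 and 2.35 ± 0.27) and the related factor NFE2L1 (1.01 ± 0.13 and 0.98 ± 0.13). MAFF, the third small MAF, was lower in both (-2.14 ± 0.41 and -2.17 ± 0.41), while CUL3 (-0.75 ± 0.13) and BACH1 (-0.67 ± 0.28) were called lower in A549 and RBX1 in neither.

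Under hypoxia 4 of the 10 regulators rose in H460 by edgeR (background 24.6%) and none fell (background 27.3%; 2, KEAP1 and MAFG, had an unadjusted p under 0.05 in that direction). MAFF was at 59.5 and 66.5 CPM in hypoxic H460 against 6.77 and 8.24 in normoxia, a rise of 3.05 ± 0.12 (adjusted p = 2.88e-09). BACH1, the repressor of HMOX1 among others, was at 106 and 99.8 CPM against 30.3 and 35.3, a rise of 1.63 ± 0.10 (adjusted p = 5.31e-08). MAFK rose by 1.45 ± 0.10 and NFE2L1 by 0.67 ± 0.09. Both hypoxic libraries lay above both normoxic ones for each of these, in a line where 38.0% of all tested genes were higher at an adjusted p under 0.1 alone. NFE2L2 was at 198 and 188 CPM against 140 and 148, a difference of 0.41 ± 0.09 (adjusted p = 0.00101) that missed the fold change minimum. This value holds relative to TMM, since library size alone shifted the median gene by -0.35 in H460. In RPKM, mean NFE2L2 was 44.9 in normoxic and 46.6 in hypoxic H460. NRF2 protein and activity were not measured, and the part of the NFE2L2 level in the H460 falls was not tested. In RKO, MAFF rose (1.07 ± 0.21; background 18.8%) and CUL3 fell (-0.69 ± 0.14; background 15.1%), while BACH1 differed by 0.54 ± 0.19 and missed the fold change minimum. In A549, where few genes were called at all (background 2.22% higher and 0.456% lower), no regulator passed by edgeR, and MAFG and SQSTM1 had unadjusted p under 0.05, both lower. The hypoxia effect was lower in RKO than in H460 for 5 of the 10 regulators (background 16.4%), NFE2L2, CUL3, BACH1, MAFF and MAFK. It was higher for 1, MAFG (background 21.1%). The effect was lower in A549 than in H460 for 6 (background 17.2%), NFE2L2, BACH1, NFE2L1, MAFF, MAFK and SQSTM1, and higher for 0 (background 18.8%). For BACH1 the effect was lower in RKO and in A549 than in H460 by 1.04 ± 0.39 (adjusted p = 0.0599) and 1.11 ± 0.40 (adjusted p = 0.0505).

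**Figure D4:**
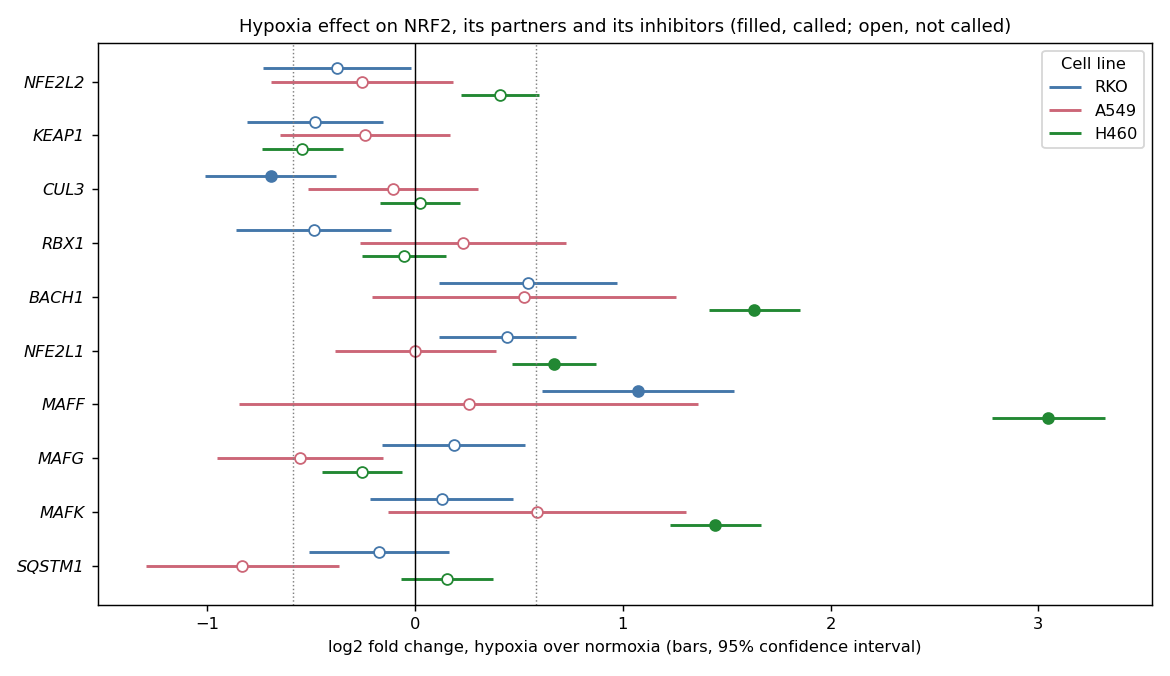
Log2 fold change of hypoxia over normoxia for NFE2L2 (NRF2), KEAP1, CUL3, RBX1, BACH1, NFE2L1, the small MAF genes and SQSTM1 in RKO, A549 and H460, with bars for the 95% confidence interval, filled points for called genes and dotted lines at a fold change of 1.5. MAFF (3.05), BACH1 (1.63) and MAFK (1.45) are the highest points of H460, and NFE2L2 lies at 0.41 there.

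A wider list of 31 other NRF2 targets was set beside the 10. Both lists were chosen with earlier results of these data known, so the counts of the wider list are no independent test. In normoxia 25 of 31 were called higher in A549 than in RKO (background 34.1%) and 27 of 31 in H460 (background 34.7%), with 22 in both. By edgeR none was lower in A549 (0 at an unadjusted p under 0.05) and CBR1, a carbonyl reductase, was lower in H460 (-0.66 ± 0.20). The median difference was 2.04 for A549 and 1.99 for H460, or 2.04 and 2.18 with genes at or under 3 reads over the 2 normoxic RKO libraries set to that bound, or left out where both lines were there. The most raised by the naming rule included AKR1C2, a sister of AKR1C1, and the drug exporter ABCC3 in A549 (9.91 ± 0.26 and 9.73 ± 0.34), and CYP4F11, a fatty acid hydroxylase, and malic enzyme ME1 in H460 (10.71 ± 0.24 and 10.56 ± 0.21). For AKR1C2, 17.2% of windows of 150 bases were shared with AKR1C1 or AKR1C3, so its level is uncertain as that of AKR1C1 is. ME1 was at 4 and 6 reads and CYP4F11 at 7 and 5 reads in normoxic RKO. GPX2, a glutathione peroxidase, had 1 and 0 reads in normoxic RKO. A549 had 1067 and 475 reads of it, and H460 had 0 and 2. For NR0B1, a nuclear receptor, RKO had 1 and 2 reads, A549 had 1105 and 631, and H460 had 1991 and 2396. The smallest called differences were GSR (0.71 ± 0.14), ABCB6 (0.88 ± 0.17) and FTL (0.90 ± 0.16) in A549 and TALDO1 (0.68 ± 0.14) and FECH (0.70 ± 0.16) in H460.

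Under hypoxia the medians of the wider list were nearer to 0. In RKO 3 of 27 tested genes rose (background 18.8%) and 5 fell (background 15.1%), with a median of -0.20, so that the counts were near those of all genes. EPHX1, an epoxide hydrolase (0.95 ± 0.18), and ABCB6, a porphyrin transporter (0.78 ± 0.20), rose the most, and CBR1 (-0.97 ± 0.17) and the pentose phosphate enzyme TALDO1 (-0.76 ± 0.15) fell the most. In A549 4 of 31 fell (background 0.456%) and none rose by edgeR (background 2.22%), with 0 at an unadjusted p under 0.05 that way and a median of -0.24. These included ALDH3A1, an aldehyde dehydrogenase (-1.68 ± 0.41), and CYP4F11 (-1.31 ± 0.24). In H460 16 of 30 tested genes fell (background 27.3%) and 4 rose (background 24.6%), with a median of -0.65. EPHX1 fell by 2.45 (SE 0.13) there, from 468 and 350 CPM to 73.1 and 78.5, whereas it rose in RKO. FECH, the last enzyme of haem synthesis, fell by 2.21 (SE 0.11), while ABCB6 (1.11 ± 0.09) and the ferritin heavy chain gene FTH1 (0.98 ± 0.10) rose.

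SLC7A11 had the largest ratio between replicates of the 10 genes in normoxic RKO (2.88) and hypoxic A549 (1.95). It is also a target of ATF4, the factor of the amino acid and integrated stress response, so its values were set beside the summed CPM of 7 ATF4-associated genes (ASNS, CHAC1, TRIB3, DDIT3, ATF3, PSAT1 and SESN2). In normoxic RKO that sum was 584 CPM in replicate 1 and 280 in replicate 2, where SLC7A11 was at 69.1 and 24.0 CPM. In normoxic A549 the sum was 280 CPM in replicate 1 and 958 in replicate 2, where SLC7A11 was at 451 and 793 CPM. The replicate with the higher sum was also the replicate with the higher SLC7A11 level in both groups and in hypoxic RKO (1059 and 515 CPM). In hypoxic A549 the order was opposite, with sums of 236 and 249 CPM beside 298 and 153 CPM of SLC7A11. In H460 the sum was 1716 and 1717 CPM in normoxia and 1206 and 1214 CPM in hypoxia. The 7 genes did not move together there, as 2 were called higher (background 24.6%) and 2 lower (background 27.3%) under hypoxia. Mean PSAT1 went from 647 to 202 CPM and ASNS from 561 to 423, whereas DDIT3 went from 73.0 to 203 and ATF3 from 17.7 to 39.5. The part of the ATF4 program in the SLC7A11 differences was not tested.

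**Figure D5:**
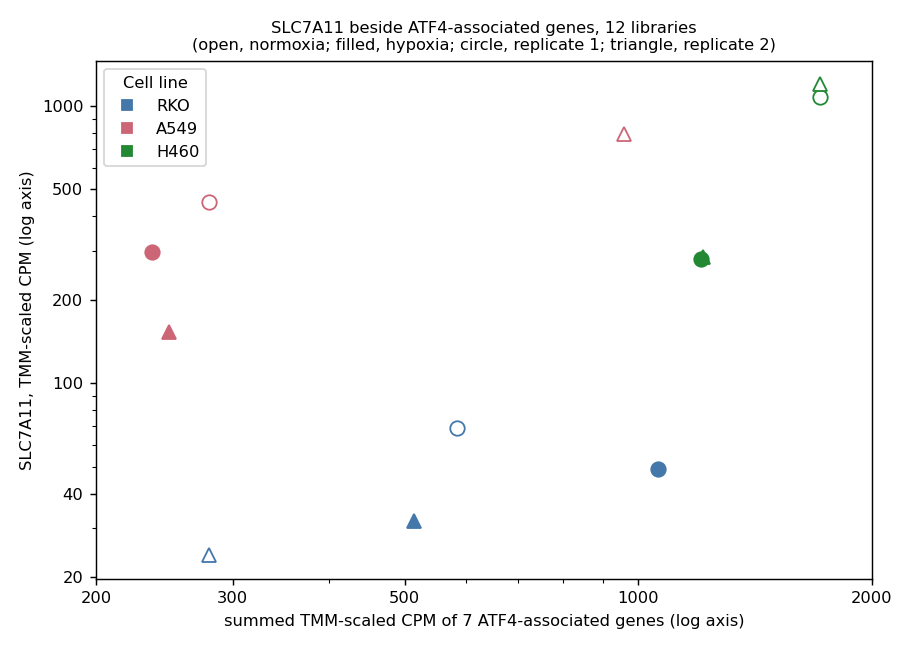
SLC7A11 (TMM-scaled CPM, log axis) against the summed TMM-scaled CPM of 7 ATF4-associated genes (log axis) in the 12 libraries, coloured by cell line, with open symbols for normoxia, filled symbols for hypoxia, circles for replicate 1 and triangles for replicate 2. At a similar sum near 280 CPM, SLC7A11 is at 451 CPM in A549 normoxia replicate 1 and at 24.0 CPM in RKO normoxia replicate 2.

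The 10 genes also differed in how closely they moved with each other. Over the 12 libraries, with the mean of each line taken out, the correlation of log2 CPM was 0.98 between GCLM and SRXN1, 0.97 between GCLM and AKR1B10, 0.97 between GCLM and GCLC and 0.98 between TXNRD1 and SLC7A11. HMOX1 stood apart, at 0.07 with GCLM, 0.01 with SRXN1 and 0.48 with OSGIN1, and NQO1 reached at most 0.42 with any other of the genes. These values describe 12 libraries that share lines, conditions and replicates. The hypoxia effect was left in, so the falls that these genes shared in hypoxic H460 are part of the correlations.

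Among 12423 genes, those whose level was most like that of each gene over the 12 libraries (Pearson correlation of log2 CPM, with the difference between lines left in) were SPG20 for NQO1 (1.000), JAM3 for AKR1C1 (0.998), ATP6V0E2 for AKR1B10 (0.997) and ARHGEF26 for GCLM (0.986). They were SYNC for HMOX1 (0.985), CXCL2 for SLC7A11 (0.978), ARV1 for SRXN1 (0.975), LARP4 for GCLC (0.974), SURF1 for TXNRD1 (0.954) and FAM200B for OSGIN1 (0.920). No other of the 10 genes was the nearest to any of them. The differences between the 3 lines are part of these values.

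Summed over the 10 genes, the level was 1108 and 790 CPM in normoxic RKO and 1010 and 1027 CPM in hypoxic RKO. It was 5356 and 5272 CPM in normoxic A549 and 4001 and 3291 CPM in hypoxic A549. In H460 it was 6780 and 6658 CPM in normoxia and 3296 and 3235 CPM in hypoxia, so that hypoxic H460 and hypoxic A549 replicate 2 were close, and both lung lines remained above every RKO library. NQO1 was the most abundant of the 10 by RPKM in hypoxic H460 (489 ± 12, SD, n = 2) and hypoxic A549 (394 ± 44, SD, n = 2).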

How the data were processed

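Per the labels and the study's methods, the authors aligned single-end strand-specific reads with TopHat2 2.0.13 to GRCh37/hg19, dropped poorly mapped alignments, used Picard 1.129 to mark duplicates and counted exon reads with HTSeq 0.6.1 in reverse-stranded, intersection-nonempty mode. They deposited a read count and an RPKM value per gene and library, and RPKM equals the deposited count over gene length and summed counts. Reads shared between gene copies are lost or misplaced by these steps. Of the deposited per-sample columns, 0 were left unused, and coordinates are 1-based on GRCh37.

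The deposited counts were fitted in R 4.3.3 by the quasi-likelihood F test of edgeR 4.0.16. Scaling was by TMM, and a gene entered if at least 2 libraries exceeded 0.5 CPM. Hypoxia effects used the 4 libraries of a line. Normoxic contrasts and differences of hypoxia effects used a joint fit with a mean for each of the 6 groups. The Benjamini-Hochberg adjustment ran over all tested genes, calls needed an adjusted p under 0.1 and a fold change over 1.5 (differences of effects, the adjusted p alone), and every adjusted p without a named tool is from edgeR. Values are log2 fold changes ± SE. The thresholds are those of the study, which used DESeq2. Alternatives were DESeq2 1.42.0, unscaled library sizes, RLE factors, other thresholds and filters, a replicate block, limma 3.58.1 on log2(RPKM + 0.1) or log2(RPKM + 1), and leaving out each library. The fits were tested on simulated data.

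The 10 genes and all gene lists were chosen with earlier results of these data known. Named genes were all 10, all regulators, and of the 31 other targets the 3 highest and 3 lowest called in each normoxic contrast with RKO and the 2 highest and 2 lowest called under hypoxia, at a mean of at least 100 counts. Also named were the ATF4-associated and hypoxia control genes and the gene most like each of the 10, at the same minimum. Marker lists covered epithelial, colon, lung and other cells. The 2 replicates per group gave a median SE of the log2 hypoxia effect of 0.18 in RKO, 0.22 in A549 and 0.11 in H460. Replicates of every group differed by more than counting error (chi-square per degree of freedom from 9.60 to 72.0), so none was a repeat deposit.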

Additional observations from a re-analysis of the deposited data

Results flagged for a closer look

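The hypoxia effect differed between cell lines for the genes below, by the test of the difference itself (edgeR, joint fit of 12 libraries, adjusted over all tested genes). Differences are on the log2 scale, and the causes were not tested.

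Between RKO and A549, OSGIN1 (4.08, adjusted p = 1.71e-06) was called in opposite directions, and HMOX1 (1.09, adjusted p = 0.0265) had the higher effect in RKO. OSGIN1 was at 8.71 and 9.09 CPM in normoxic RKO and 44.8 and 32.1 in hypoxia, against 44.1 and 42.3 CPM and 11.0 and 11.1 in A549.

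Between RKO and H460, the effect was higher in RKO for OSGIN1 (3.83, adjusted p = 2.69e-06), HMOX1 (2.58, adjusted p = 3.89e-05), AKR1B10 (2.40, adjusted p = 0.000392) and SLC7A11 (1.81, adjusted p = 0.0289). The same held for SRXN1 (1.499, adjusted p = 0.000135), GCLM (1.48, adjusted p = 0.000293), TXNRD1 (1.10, adjusted p = 0.0119) and GCLC (0.64, adjusted p = 0.031). AKR1B10 was under 60 reads in every RKO library, so its difference there compares a well counted change with a poorly counted one.

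Between A549 and H460, the effect was higher in A549 for AKR1B10 (1.67, adjusted p = 0.000932), HMOX1 (1.49, adjusted p = 0.00165), GCLM (1.41, adjusted p = 0.000536), SRXN1 (1.00, adjusted p = 0.0022) and GCLC (0.68, adjusted p = 0.0246).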

How the results depend on the processing

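Single-gene effects kept their direction and side of the thresholds in most alternatives. Of 449 alternative values for hypoxia effects, 394 did, 17 lost and 23 gained a call and 15 changed sign. Of 390 for normoxic levels the numbers were 376, 9, 3 and 2, and of 420 for differences of effects 374, 5, 24 and 17. With 2 replicates per group, and few AKR1B10 and AKR1C1 reads in RKO, small effects were not detectable. Library size scaling shifted the median of all genes by 0.13, 0.39 and 0.26 for the differences of effects (RKO against A549, RKO against H460, A549 against H460).

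Shares of all tested genes called in the same setting and direction are given in brackets. The count of genes lower in hypoxic RKO (1, beside 15.1%) was 0 with limma and a pseudocount of 1 (10.2%). It was 0 at a fold change over 2 (4.85%) and 3 with no fold change minimum (22.9%). Without single replicates the GCLC effect there ranged from -0.81 to -0.50. The count higher in hypoxic A549 (0, beside 2.22%) was 1 with DESeq2 (4.27%) and in the joint fit (6.14%). It was also 1 with no low count filter (587 of 19571 genes). Without single replicates the HMOX1 effect there ranged from 0.56 to 0.78. The count lower in A549 (4, beside 0.456%) was 2 with library size only (0.288%). It was 1 with limma at either pseudocount, beside 0.154% at 0.1 and 0.0561% at 1. Fits without single replicates leave 1 library in a group, and their effect sizes for A549 are given above. For normoxic A549 over H460, AKR1B10 was at 0.65 without A549 normoxia replicate 2, against 0.40 with all libraries. The count with a higher effect in RKO than A549 (2, beside 9.03%) was 4 with library size only (12.2%) and 4 with limma (14.0%). Without single replicates this difference ranged from 0.36 to 0.65 for SRXN1, 0.38 to 1.06 for TXNRD1 and 0.70 to 2.23 for SLC7A11.

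Labels give the same replicate numbers in every group but do not say that they pair samples, and a line has only 2 pairs. Same-numbered deviations correlated at 0.36 (RKO), 0.38 (A549) and 0.16 (H460). With the replicate block, 1 gene was higher (HMOX1, 0.67) and 8 were lower in hypoxic A549, GCLM (-0.59), GCLC (-0.60), TXNRD1 (-0.74) and AKR1C1 (-0.63) gaining a call, beside 8.34% of all genes higher and 5.07% lower. In that fit 6 had a higher effect in RKO than A549 (15.4% of all genes), while the other counts stayed within 1.5 times.

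Signs changed as follows, and the cause was not tested. After the change 2 values passed the thresholds, SLC7A11 in RKO without RKO normoxia replicate 1 (0.70) and the NQO1 difference between RKO and H460 with limma (0.36). With library size only, hypoxia effects became 0.023 for NQO1 in RKO and -0.35 for NQO1 in H460. With limma they became 0.021 and 0.020 for NQO1 in RKO (pseudocounts 0.1 and 1), 0.024 at both for TXNRD1 in RKO, and -0.35 and -0.34 for NQO1 in H460, which became -0.010 with a mean CPM over 1. Without single replicates the hypoxia effects ranged from -0.080 to 0.013 (NQO1, RKO), -0.042 to 0.042 (NQO1, H460), -0.84 to 0.70 (SLC7A11, RKO) and -0.40 to 0.28 (TXNRD1, RKO), and the TXNRD1 difference of normoxic A549 from H460 from -0.062 to 0.18. Differences of effects between RKO and A549 became 0.088 for GCLC with library size only and 0.098 with limma, and ranged from -0.17 to 0.091 for GCLC and -0.13 to 0.33 for GCLM without single replicates. Between A549 and H460 they became 0.069 for NQO1 with library size only and 0.066 with limma, 0.026 and 0.13 for OSGIN1, and ranged from -0.015 to 1.01 for SLC7A11. Between RKO and H460, NQO1 became 0.37 with library size only and 0.36 with limma, and ranged from -0.046 to 0.0079 without single replicates.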

Other observations

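Setting the hypoxic levels of the lines side by side gave another order of the means than in normoxia for 3 of the genes (OSGIN1, GCLM and GCLC). OSGIN1 was at 44.8 and 32.1 CPM in hypoxic RKO, at 11.0 and 11.1 CPM in hypoxic A549 and at 34.8 and 24.6 CPM in hypoxic H460, so that RKO, the lowest line in normoxia, overlapped with H460 and lay above A549. GCLM was at 90.1 and 65.6 CPM in hypoxic A549 and at 33.0 and 33.2 CPM in hypoxic H460, whereas in normoxia A549 lay just under H460, at 118 and 112 against 132 and 127 CPM. HMOX1 kept its order but was at 131 and 219 CPM in hypoxic RKO and at 28.0 and 27.2 CPM in hypoxic H460, although these lines overlapped in normoxia. GCLC was at 30.5 and 36.7 CPM in hypoxic RKO and at 32.9 and 30.3 CPM in hypoxic H460, levels that overlapped, while in normoxia H460 was higher. The differences between hypoxic lines were not tested.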
